A study of Mus musculus with 24 samples.

Results

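Hearts of control mice in a myocarditis model were compared between D15 and D10, that is 15 and 10 days after the first immunization. All mice were wild-type male Balb/c, young adults, and received an emulsion of supplemented complete Freund's adjuvant and PBS on day 0 and day 7, with pertussis toxin (PTX) on day 0. They never received the cardiac myosin peptide that induces experimental autoimmune myocarditis (EAM) in the other arm of the study. The D10 hearts were therefore taken 3 days after the second injection of adjuvant and the D15 hearts 8 days after it. Each day had 4 hearts from separate mice. These 8 of the 24 samples gave 14926 genes for testing out of 41388 counted, those that reached 10 reads in 4 or more of the 8 libraries. RNA came from a portion of each heart. The sources used here do not state which portion was taken, the hour of the day or what a replicate number stands for. No mice without adjuvant are analysed here, so the levels have no baseline before injection.

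Complete Freund's adjuvant is an oil emulsion with killed mycobacteria. It drives a systemic innate response in which the bone marrow releases neutrophils, monocytes and platelets and the liver and other tissues make acute phase proteins. Interleukin 6 acts in this response through STAT3, whose targets include Socs3, an inhibitor of STAT3 signalling. The heart also holds resident macrophages, and its muscle cells burn mainly fatty acids.

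Total counts of the 8 libraries lay between 16578239 and 20222607. Expression is given as CPM, the reads of a gene relative to the total of its library after TMM scaling (a correction for library composition), and 3 reads correspond to 0.148 to 0.181 unscaled CPM. In a principal component analysis of the 500 most variable genes, PC1 held 50.6% of the variance and placed all D10 hearts on one side (-21.3 to -9.03) and all D15 hearts on the other (3.48 to 22.6). D15 control replicate 4 lay nearest to the D10 hearts. That heart had atrial genes at the D10 level, below the other 3 D15 hearts. D10 control replicate 3 was the highest heart in most platelet genes, and D10 control replicate 4 was the lowest D10 heart in many myeloid genes. The cardiomyocyte gene Myh6, the alpha myosin heavy chain, lay at 9674 to 12960 unscaled CPM at D10 and 9412 to 11930 at D15. Over all D10 and all D15 hearts there were 1 and 4 reads of the lung gene Sftpc, 1 and 0 of the thymus gene Rag1, and 4 and 4 of Myh4, 39 and 46 of Tnnt3 and 39 and 40 of Mylpf, 3 genes of skeletal muscle. Of 3 lung epithelium genes tested 1 fell (Scgb3a1, a secretoglobin of airways, log2 fold change -1.86), while of 8 skeletal muscle genes tested 0 passed FDR 0.05 by edgeR, with Myl1 and Atp2a1 higher at an unadjusted p under 0.05.

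With edgeR's quasi-likelihood test and Benjamini-Hochberg adjustment, 0 genes were higher and 0 were lower at the limits of the study, a change of 2-fold or more with a false discovery rate (FDR) below 0.01. The smallest adjusted p was 0.0227, and 2476 genes had an unadjusted p under 0.05. At the same limits limma-voom called 0 higher and 0 lower genes and DESeq2 32 and 92, while edgeR's older tests called 57 and 112 (likelihood ratio) and 55 and 109 (exact). At the wider limit of FDR under 0.05 with the quasi-likelihood test, 32 genes rose (0.214% of those tested) and 104 fell (0.697%) from D10 to D15. The words rose and fell are used below only for genes past this limit. Of the 136 genes, 133 had all 4 D15 hearts on one side of all 4 D10 hearts. The falls were larger, with a median size of 1.3 on the log2 scale and 63 genes at least 2-fold, against 0.685 and 11 genes for the rises. The median log2 fold change of all genes was 0.003.

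These calls moved with single hearts. Without D15 control replicate 2 or without D15 control replicate 3, 0 genes passed FDR 0.05 by edgeR's quasi-likelihood test, with 2042 and 2150 genes at an unadjusted p under 0.05. Without D15 control replicate 1, 1 gene was higher and 4 were lower. Without D10 control replicate 1, 2 or 3 the counts of higher and lower genes were 4 and 24, 2 and 12, and 4 and 40. Without D10 control replicate 4 there were 108 higher and 354 lower genes, and without D15 control replicate 4 there were 193 higher and 98 lower genes.

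Groups of genes are described by counts beside the same counts over all genes. Some genes belong to more than a single list, so the counts of different lists are not independent. At an unadjusted p under 0.05, 8.31% of all genes were lower and 8.28% were higher at D15. With no overlap between the D10 and D15 hearts, 4.65% of all genes were lower and 4.08% were higher. In bulk tissue, fewer cells of a type and less RNA per cell cannot be told apart.

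**Figure D1:**
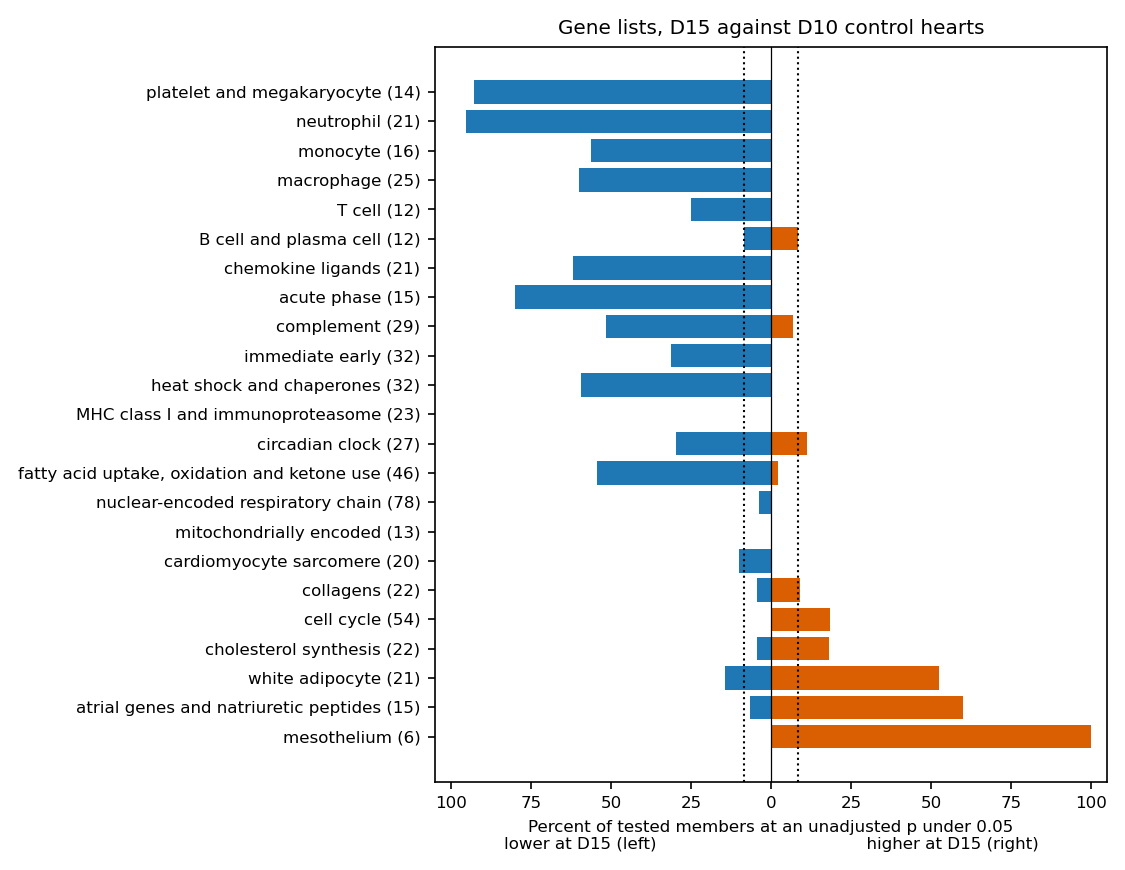
Percent of the tested members of each gene list (their number in brackets) at an unadjusted p under 0.05 by edgeR, those lower at D15 to the left of 0 and those higher at D15 to the right. Dotted lines mark all genes tested, 8.31% lower and 8.28% higher; platelet and neutrophil genes reach furthest to the left and mesothelial genes furthest to the right.

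Platelet and megakaryocyte genes had the lowest median log2 fold change of the lists drawn. Platelets are shed by megakaryocytes and carry megakaryocyte transcripts into the blood held in a tissue. Of 16 genes in the list, 14 passed the filter on low counts, which the D10 hearts alone could satisfy. Of these 14 genes, 11 fell, none rose, and 13 were lower at an unadjusted p under 0.05. All 14 had a log2 fold change below 0, with a median of -2.945 against 0.003 for all genes, and 12 had no overlap between the days.

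Ppbp (ENSMUSG00000029372, chromosome 5, 90768518 to 90770063), the platelet basic protein and a chemokine stored in platelet granules, lay at 12.6, 13.3, 46.3 and 17.9 CPM in D10 controls 1 to 4 and at 0.753, 1.26, 1.504 and 1.25 CPM in D15 controls 1 to 4. The lowest D10 heart was far above every D15 heart, and D10 control replicate 3 was the highest. The log2 fold change of Ppbp was -4.24 (standard error 0.50, adjusted p = 0.0227, edgeR), which is 18.9-fold lower. Without D10 control replicate 3 it was -3.609. Tubb1, the beta tubulin of the platelet's marginal band, lay at 3.98, 5.73, 13.5 and 4.75 CPM at D10 and at 0.201, 0.286, 0.301 and 0.625 CPM at D15. Gp9, a subunit of the von Willebrand factor receptor, lay at 2.45, 3.38, 10.5 and 3.61 CPM at D10 and at 0.201, 0.286, 0.200 and 0.170 CPM at D15, where 3 reads are worth about as much. Both genes had no overlap between the days, with log2 fold changes of -4.31 for Tubb1 and -4.50 for Gp9, and at such low D15 levels the fitted size depends on the prior count.

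Itga2b, the alpha chain of the platelet fibrinogen receptor, fell from 10.6, 12.2, 35.2 and 13.6 CPM to 1.66, 1.83, 1.85 and 2.78 CPM, or 8.83-fold. Gp5, another subunit of the von Willebrand factor receptor, lay at 1.58, 1.08, 3.53 and 1.65 CPM at D10 and at 0.1005, 0.0573, 0.150 and 0.114 CPM at D15. Treml1 (log2 fold change -4.53), a receptor of platelet granules, Clec1b (-3.03), the podoplanin receptor, Gp1bb (-2.87), Itgb3 (-1.43) and Selp (-1.54), P-selectin of platelets and endothelium, fell as well. Pf4, platelet factor 4, which macrophages also express, fell less, from 23.6, 22.7, 35.1 and 17.1 CPM to 8.64, 11.2, 8.67 and 10.5 CPM (log2 fold change -1.34, standard error 0.20, adjusted p = 0.0274, edgeR). Vwf (-0.26, adjusted p = 0.265) and F13a1 (-0.64, adjusted p = 0.0582), which endothelium and macrophages also make, did not pass edgeR's limit. The third that did not pass was Gp1ba, the ligand-binding chain of the von Willebrand factor receptor, at 5.12, 4.65, 6.05 and 4.12 CPM at D10 and 4.22, 4.81, 4.21 and 4.83 CPM at D15 (-0.15, adjusted p = 0.655, edgeR). Its days overlapped, unlike those of the partner subunits Gp9, Gp5 and Gp1bb. Outside the list, F5, coagulation factor V, lay at 2.998, 3.82, 11.5 and 3.93 CPM at D10 and 0.502, 0.0573, 0.301 and 0.398 CPM at D15, and Cd226, an adhesion receptor of platelets and lymphocytes, had a log2 fold change of -3.14. D10 control replicate 3 was again the highest heart in both.

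**Figure D2:**
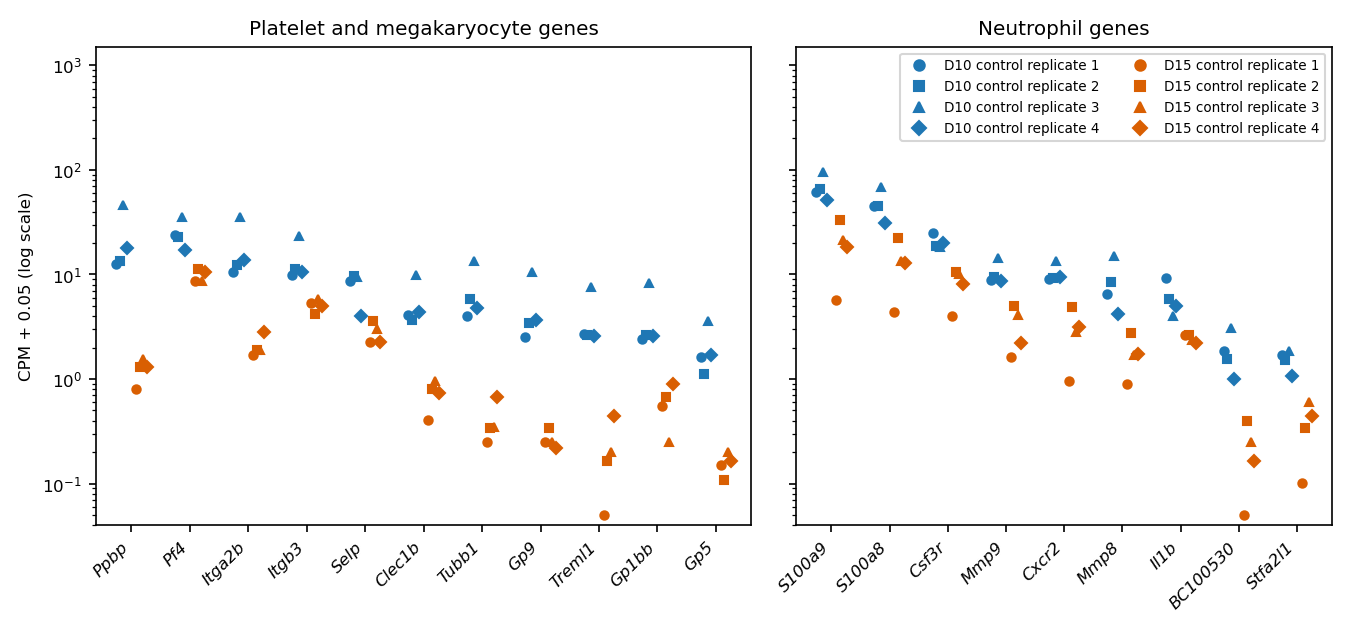
CPM plus 0.05 on a log axis for the platelet genes (left) and neutrophil genes (right), one point per heart, D10 controls in blue and D15 controls in orange, with a marker shape for each replicate number. D10 control replicate 3 is the highest heart in most platelet genes (46.3 CPM for Ppbp), and D15 control replicate 1 is the lowest in most neutrophil genes (4.37 CPM for S100a8).

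The median log2 fold change of the 14 platelet genes ranged from -3.105 to -2.385 with each heart left out, and the smallest size was without D10 control replicate 3. The number that fell at FDR 0.05 was 0 without D15 control replicate 1, 2 or 3 and between 6 and 12 without any of the other 5 hearts, while 12 or 13 stayed at an unadjusted p under 0.05. Other hearts of the study, which did not enter the fit, give the level at the same days after peptide and at a later day in controls. In EAM hearts Ppbp lay at 17.9 to 35.7 CPM at D10 and 1.67 to 9.98 CPM at D15, and Tubb1 at 4.72 to 8.84 CPM and 0.428 to 3.22 CPM. In controls at D21 Tubb1 lay at 0.130 to 1.12 CPM. Of the 11 platelet genes that fell in controls, 7 were lower with no overlap in EAM hearts at D15, where 26.2% of all genes tested were lower and 22.2% higher with no overlap (Ppbp, Tubb1, Gp5, Gp9, Itga2b, Treml1 and Gp1bb). The other 4 overlapped there, with Clec1b at 4.30 to 9.01 CPM and 1.25 to 5.53 CPM, Pf4 at 25.7 to 31.9 CPM and 23.2 to 45.8 CPM, and higher means at D15 in Itgb3 and Selp (10.3 to 58.7 CPM and 52.8 to 72.0 CPM). F5 and Cd226 overlapped in EAM hearts too. These 2 days were not tested in EAM hearts.

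The start regions of 4 of these genes are shown since their levels fell together and since GATA and ETS factors are known regulators of megakaryocyte genes. The sequences are from RefSeq on GRCm38.p6 and run 5′ to 3′ along the gene from 250 bases before to 50 bases after its annotated start. They lie at chr5:90768268-90768567 (+) for Ppbp, chr2:174450345-174450644 (+) for Tubb1, chr16:30310732-30311031 (-) for Gp5 and chr6:87777820-87778119 (+) for Gp9. Capitals mark GATAA and GGAAG on either strand (TTATC and CTTCC on the other).
Ppbp: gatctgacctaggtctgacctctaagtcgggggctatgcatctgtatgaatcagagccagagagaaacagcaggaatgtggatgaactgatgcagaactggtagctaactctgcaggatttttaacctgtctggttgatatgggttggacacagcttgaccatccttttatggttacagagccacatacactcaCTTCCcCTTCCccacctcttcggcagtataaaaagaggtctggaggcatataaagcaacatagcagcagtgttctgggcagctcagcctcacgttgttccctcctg
Tubb1: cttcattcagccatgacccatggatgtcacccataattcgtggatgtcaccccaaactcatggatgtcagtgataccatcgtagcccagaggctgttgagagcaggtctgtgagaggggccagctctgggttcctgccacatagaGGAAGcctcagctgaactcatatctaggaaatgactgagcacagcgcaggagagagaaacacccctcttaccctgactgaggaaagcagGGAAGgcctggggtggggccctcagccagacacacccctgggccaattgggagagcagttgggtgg
Gp5: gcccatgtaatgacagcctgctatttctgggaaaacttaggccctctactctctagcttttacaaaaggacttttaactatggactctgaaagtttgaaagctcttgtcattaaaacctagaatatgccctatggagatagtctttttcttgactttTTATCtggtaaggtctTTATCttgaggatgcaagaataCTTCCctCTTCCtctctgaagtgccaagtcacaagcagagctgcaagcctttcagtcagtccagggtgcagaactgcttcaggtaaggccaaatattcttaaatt
Gp9: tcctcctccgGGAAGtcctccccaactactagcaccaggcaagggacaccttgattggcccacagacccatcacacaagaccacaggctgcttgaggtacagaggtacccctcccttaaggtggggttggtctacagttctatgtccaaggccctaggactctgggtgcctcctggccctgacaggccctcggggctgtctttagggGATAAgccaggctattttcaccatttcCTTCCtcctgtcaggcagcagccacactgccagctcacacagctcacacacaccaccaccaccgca

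The ETS letters GGAAG were present in each of the 4 windows, 2 times in each, and the GATA letters GATAA 2 times in Gp5 and once in Gp9. Windows were found for 12 of the 14 tested platelet genes. Of the 13 windows of these genes, 6 held GATAA (46.2%) and 12 held GGAAG (92.3%). The shares were 25.4% and 71.4% of all 32851 windows counted and 16.5% and 75.3% of the windows of genes tested. Windows of a single chromosome were left out of all window counts here and below. A match is a description of letters and not a measured binding site.

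Neutrophil genes were lower at D15 as well. Of 26 genes in the list 21 were tested, 7 fell, none rose, and 20 were lower at an unadjusted p under 0.05. All 21 were below 0, with a median log2 fold change of -1.729, and 16 had no overlap between the days. As in the platelet list, the D10 hearts alone could satisfy the filter on low counts, so the direction of the rarest members is partly fixed by it. Csf3r (ENSMUSG00000028859, chromosome 4, 126024550 to 126044440), the receptor for the granulocyte growth factor G-CSF, lay at 24.6, 18.5, 18.3 and 19.9 CPM at D10 and at 3.97, 10.5, 10.0 and 8.01 CPM at D15. Every D15 heart was below every D10 heart, D15 control replicate 1 was the lowest, and the log2 fold change was -1.33 (standard error 0.24, adjusted p = 0.0440, edgeR). Mmp8, the neutrophil collagenase, fell from 6.43, 8.38, 15.0 and 4.12 CPM to 0.854, 2.69, 1.65 and 1.70 CPM. Mmp9 (log2 fold change -1.70), a gelatinase of neutrophil granules, Cxcr2 (-1.84), the receptor that draws neutrophils out of the marrow, Il1b (-1.31), an inflammatory cytokine, and the stefin genes Stfa2l1 (-2.20) and BC100530 (-3.47) fell too. The stefin genes have near-identical copies, so their counts are uncertain.

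The most abundant neutrophil transcripts had large differences that did not pass edgeR's limit of FDR 0.05. S100a8, a subunit of calprotectin, lay at 45.4, 44.8, 69.3 and 31.0 CPM at D10 and at 4.37, 22.1, 13.5 and 12.8 CPM at D15 (log2 fold change -1.86, standard error 0.37, adjusted p = 0.0511, edgeR). Its partner S100a9 had a log2 fold change of -1.82 (adjusted p = 0.0577, edgeR), and Lcn2, the iron-siderophore binding protein lipocalin 2, one of -2.45 (adjusted p = 0.0520, edgeR), at 43.0, 52.5, 68.6 and 12.7 CPM against 2.71, 11.98, 11.1 and 6.87 CPM. In the S100 genes and Lcn2 the spread was wide within both days, with D15 control replicate 1 the lowest heart of all. The list median ranged from -2.151 to -1.463 with each heart left out. The number that fell was 0 or 1 without any of D10 control replicates 1 to 3 or D15 control replicates 1 to 3, it was 15 without D10 control replicate 4 and 5 without D15 control replicate 4, and 19 to 21 stayed at an unadjusted p under 0.05.

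Genes of monocytes, macrophages and all leucocytes were lower by smaller amounts. Of 25 macrophage genes tested, 3 fell and 15 were lower at an unadjusted p under 0.05, with a median log2 fold change of -0.481. Of 16 monocyte genes, 1 fell and 9 were lower, with a median of -0.448, and of 29 complement genes, 3 fell and 15 were lower, with a median of -0.483 and 2 higher at an unadjusted p under 0.05. Ptprc, the pan-leucocyte phosphatase CD45, lay at 36.8, 32.4, 27.2 and 22.9 CPM at D10 and at 16.2, 16.0, 17.2 and 19.996 CPM at D15 (log2 fold change -0.78, standard error 0.14, adjusted p = 0.0440, edgeR). The days did not overlap, and D10 control replicate 4 was the D10 heart closest to D15. Itgb2, the beta chain of leucocyte integrins, fell from 24.1, 23.4, 22.01 and 13.9 CPM to 9.09, 12.03, 10.8 and 11.1 CPM. C1qc, a chain of complement C1q made by macrophages, fell from 119, 109, 106 and 78.7 CPM to 57.9, 71.2, 72.8 and 70.2 CPM. Again D10 control replicate 4 was the lowest D10 heart in both genes.

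Cbr2 (log2 fold change -0.59), a carbonyl reductase of resident macrophages, Fcgr1 (-0.92), the high-affinity IgG receptor, C5ar1 (-0.93), the receptor for the complement fragment C5a, and Plac8 (-1.58), a gene of inflammatory monocytes, fell as well. The general macrophage genes Adgre1 (-0.55, adjusted p = 0.131), Cd68 (-0.95, adjusted p = 0.105) and Csf1r (-0.21, adjusted p = 0.329) did not pass edgeR's limit. Without D10 control replicate 4, 13 of the 25 macrophage, 6 of the 16 monocyte and 12 of the 29 complement genes fell, against 2 in each list without D15 control replicate 4 and 0 without any of the other 6 hearts. Of 12 tested T cell genes 0 passed FDR 0.05 by edgeR, 3 were lower at an unadjusted p under 0.05 and 11 were below 0, with a median of -0.197, and of 12 B cell and plasma cell genes 0 passed with 1 higher and 1 lower and a median of 0.034. Cd3d, a chain of the T cell receptor complex, had only 21 reads over the 4 D10 hearts and 21 over the 4 D15 hearts.

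Chemokines and acute phase genes were higher at D10. Of 21 chemokine ligand genes tested, 6 fell and 13 were lower at an unadjusted p under 0.05, with a median log2 fold change of -0.896. Ppbp and Pf4 are also members of this list. Without D10 control replicate 4, 12 fell, without D15 control replicate 4, 5 fell, and without any of the other 6 hearts 0 to 2 fell. Ccl7, which attracts monocytes, fell from 21.97, 19.6, 11.7 and 5.64 CPM to 4.62, 4.98, 2.96 and 2.73 CPM. Cxcl1, which attracts neutrophils, fell from 16.9, 14.7, 10.2 and 5.26 CPM to 2.71, 4.87, 4.21 and 2.61 CPM. Every D10 heart was above every D15 heart in both, with D10 control replicate 4 the nearest to D15. Ccl12 (log2 fold change -1.58) and Cxcl14 (-0.90) fell too.

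Of 15 acute phase genes tested out of 26 in the list, 4 fell and 12 were lower at an unadjusted p under 0.05, with a median log2 fold change of -0.987. Without D10 control replicate 4, 11 fell, and without any other heart 0 to 2 fell, while 11 to 13 stayed at an unadjusted p under 0.05. Rare members such as Serpina3m could pass the filter through the D10 hearts alone. Socs3 (chromosome 11, 117966079 to 117970047, minus strand), the feedback inhibitor of STAT3 signalling, lay at 27.4, 30.1, 29.8 and 14.7 CPM at D10 and at 8.34, 9.51, 9.37 and 9.43 CPM at D15. The 4 D15 hearts lay close together below every D10 heart, and the log2 fold change was -1.48 (standard error 0.20, adjusted p = 0.0238, edgeR). Serpina3n, a serine protease inhibitor, fell from 135, 157, 197 and 43.4 CPM to 15.5, 35.2, 38.693 and 34.1 CPM, and the related Serpina3m had a log2 fold change of -2.36. Saa3, the serum amyloid A of tissue, lay at 40.0, 36.3, 18.7 and 0.761 CPM at D10 and at 0.703, 1.09, 1.20 and 0.795 CPM at D15 (log2 fold change -4.66, standard error 0.89, adjusted p = 0.0448, edgeR). Saa3 overlapped between the days because D10 control replicate 4 was at the D15 level, and without that heart its log2 fold change was -5.053. Serpina3n and Serpina3m belong to a family of similar genes whose reads the counting could split.

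The start region of Socs3 is shown for the letters of the STAT element, TTCNNNGAA, which reads the same on both strands and is marked in capitals. It lies at chr11:117969317-117969616 on the minus strand of GRCm38.p6, from RefSeq.
Socs3: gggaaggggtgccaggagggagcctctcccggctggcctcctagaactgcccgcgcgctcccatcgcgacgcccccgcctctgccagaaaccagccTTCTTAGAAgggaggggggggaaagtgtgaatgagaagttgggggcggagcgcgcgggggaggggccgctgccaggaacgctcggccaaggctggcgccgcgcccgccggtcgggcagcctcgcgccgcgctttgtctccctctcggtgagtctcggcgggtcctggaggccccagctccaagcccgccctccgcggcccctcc

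The Socs3 window held the letters once. Windows were found for 12 of the tested acute phase genes, and 5 of their 13 windows (38.5%) held TTCNNNGAA, against 8.3% of all windows and 6.88% of the windows of genes tested. Several transcription factor genes also fell. Junb, an AP-1 subunit, fell from 53.1, 49.5, 44.9 and 37.4 CPM to 27.7, 25.1, 23.5 and 22.7 CPM (log2 fold change -0.90, standard error 0.11, adjusted p = 0.0227, edgeR). Stat3 itself fell from 248, 279, 270 and 244 CPM to 210, 201, 209 and 225 CPM, a log2 fold change of -0.30. Both genes had every D10 heart above every D15 heart. Fosl2 (-0.50), another AP-1 subunit, Myc (-1.103) and Cebpb (-1.07), a factor of acute phase and myeloid genes, fell as well. Of 32 immediate early genes tested, 3 fell and 10 were lower at an unadjusted p under 0.05, with 6 above 0 and a median of -0.206.

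Other immune lists were mixed. Of 23 tested genes of MHC class I presentation and the immunoproteasome, 0 passed FDR 0.05 by edgeR and 0 had an unadjusted p under 0.05, with a median log2 fold change of 0.036. Of 24 interferon-inducible GTPases and interferon gamma targets, 0 passed with 2 higher and 1 lower at an unadjusted p under 0.05. Of 37 antiviral genes stimulated by type I interferon, 1 fell and 8 were lower at an unadjusted p under 0.05, with a median of -0.099. Of 39 genes of toll-like receptors, NF-kappaB and the inflammasome, 1 fell and 16 were lower, with a median of -0.228, and of 39 interleukin and receptor genes 2 fell (Il1b and Il17ra, the receptor for interleukin 17A), 12 were lower and 1 was higher, with a median of -0.177. Of 17 macrophage enzyme and phagocyte oxidase genes 2 fell, 9 were lower and 1 was higher, and of 15 chemokine receptor genes 2 fell, 3 were lower and 1 was higher.

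Most genes of fatty acid use were lower at D15, in the median by a small amount. Of 46 tested genes for fatty acid uptake, oxidation and ketone use, 4 fell, 25 were lower and 1 was higher at an unadjusted p under 0.05, and 21 were lower with no overlap. The median log2 fold change was -0.129, with single genes from -1.254 to 0.251 and 5 of the 46 above 0. With each heart left out 0 to 5 fell, with 0 without D10 control replicate 2 or any of D15 control replicates 1 to 3, and 17 to 26 stayed lower at an unadjusted p under 0.05. Cpt2 (chromosome 4, 107903981 to 107923610, minus strand), which reforms acyl-CoA inside mitochondria, lay at 300, 319, 296 and 312 CPM at D10 and at 242, 247, 251 and 244 CPM at D15. The spread within each day was far smaller than the gap, and the log2 fold change was -0.32 (standard error 0.04, adjusted p = 0.0274, edgeR). Plin2, which coats lipid droplets, fell from 118, 117, 104 and 96.4 CPM to 80.5, 77.6, 76.99 and 76.97 CPM. Cpt2 and Plin2 both kept the days apart, and Plin5 (-0.26), another lipid droplet protein, fell as well.

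The oxidation enzymes Eci1, Hadha and Decr1 had adjusted p-values of 0.0582, 0.0625 and 0.0628 by edgeR. Next to this list, 0 of 34 genes of the TCA cycle and branched-chain amino acid breakdown passed FDR 0.05 by edgeR, and 11 were lower at an unadjusted p under 0.05. Of 78 nuclear-encoded respiratory chain genes 0 passed and 3 were lower, and of 13 mitochondrially encoded genes 0 passed and 0 had an unadjusted p under 0.05. The share of reads from 37 mitochondrially encoded genes was 6.55% ± 0.764 (SD, n = 4) at D10 and 6.66% ± 0.444 (SD, n = 4) at D15 (exact two-sided permutation test, p = 0.857, adjusted over 3 shares 0.857, the smallest possible p being 0.0286).

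Chaperones were lower too. Of 32 heat shock and chaperone genes, 1 fell, 19 were lower at an unadjusted p under 0.05 and 15 were lower with no overlap, with a median log2 fold change of -0.228. With each heart left out 0 to 5 fell, with 5 without D10 control replicate 4, and 16 to 22 stayed lower at an unadjusted p under 0.05. Pdia4, a protein disulfide isomerase of the endoplasmic reticulum, fell from 49.4, 47.2, 54.2 and 46.1 CPM to 41.1, 36.0, 37.4 and 40.3 CPM (log2 fold change -0.35, standard error 0.07, adjusted p = 0.0444, edgeR). Hspa5, the main chaperone of the endoplasmic reticulum, lay at 674, 652, 880 and 698 CPM at D10 and at 582, 520, 528 and 580 CPM at D15, with an adjusted p of 0.0733 by edgeR. All D10 hearts were above all D15 hearts in both, and D10 control replicate 3 was the highest. Calr, calreticulin, had a log2 fold change of -0.32 (adjusted p = 0.0575, edgeR). Hspa1a, the inducible cytosolic Hsp70, had one of -1.52 (adjusted p = 0.0511, edgeR), and its reads can be shared with a near-identical neighbour.

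**Figure D3:**
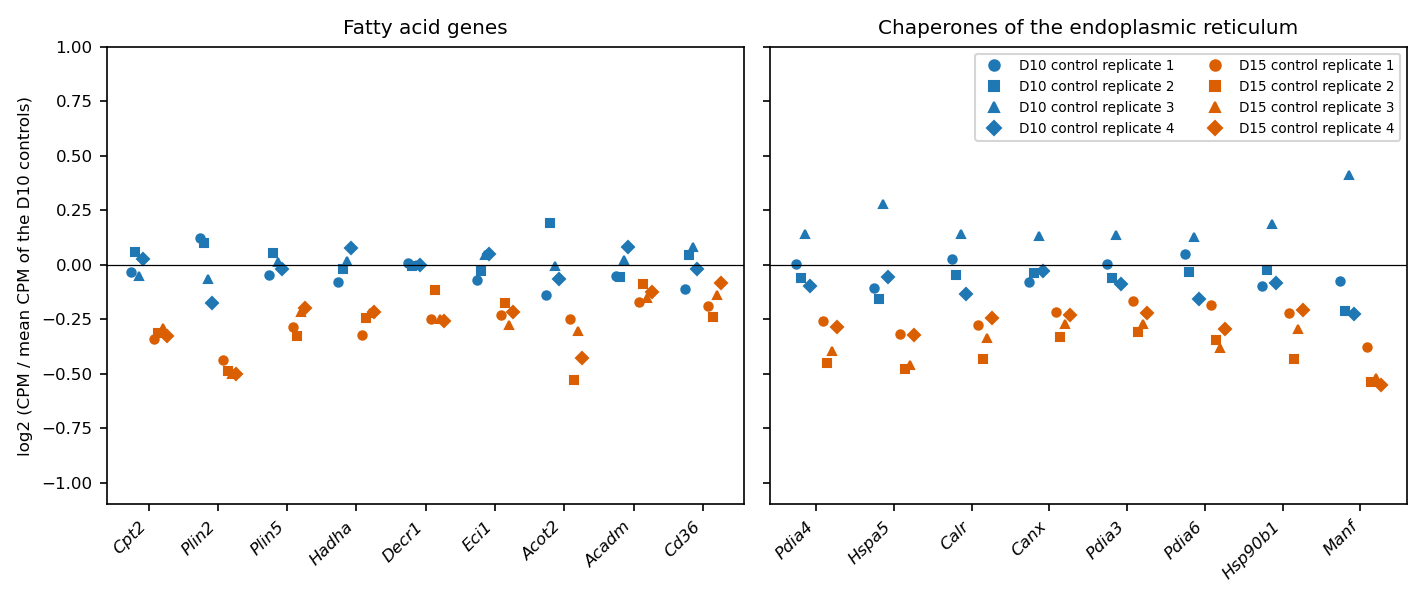
Log2 ratio of each heart's CPM to the mean CPM of the D10 controls, for fatty acid genes (left) and chaperones of the endoplasmic reticulum (right), D10 controls in blue and D15 controls in orange. The D15 points of Cpt2 lie close together (242 to 251 CPM) below all D10 points (296 to 319 CPM), and D10 control replicate 3 is the highest D10 heart in the chaperones drawn.

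Clock genes differed in several hearts. The circadian clock is a feedback loop in which Arntl (Bmal1) with Clock or Npas2 drives the Per genes and the REV-ERB receptors Nr1d1 and Nr1d2, which in turn repress Arntl. Of 27 tested clock genes, 1 rose, 0 fell, and 3 were higher and 8 lower at an unadjusted p under 0.05. Arntl (ENSMUSG00000055116, chromosome 7, 113207465 to 113314126), named here after its values were seen, lay at 23.7, 26.1, 22.9 and 23.5 CPM at D10 and at 33.9, 33.5, 35.2 and 37.9 CPM at D15. All D15 hearts were above all D10 hearts with little spread, and the log2 fold change was 0.55 (standard error 0.06, adjusted p = 0.0227, edgeR), or 1.46-fold. Its partner Npas2 had a log2 fold change of 0.91 (adjusted p = 0.0782, edgeR), also with no overlap.

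Per2 lay at 10.6, 12.5, 21.3 and 16.3 CPM at D10 and at 2.61, 5.62, 7.82 and 7.38 CPM at D15 (log2 fold change -1.37, adjusted p = 0.0646, edgeR). Per3 lay at 19.6, 19.99, 19.9 and 20.7 CPM at D10 and at 8.74, 13.9, 15.7 and 13.1 CPM at D15 (log2 fold change -0.64, adjusted p = 0.0651, edgeR). The days did not overlap in either Per gene, and D15 control replicate 1 was the lowest heart in both. Nr1d1 (-0.07, adjusted p = 0.840), Nr1d2 (-0.34, adjusted p = 0.130), Per1 (-0.50, adjusted p = 0.586) and Dbp (-0.35, adjusted p = 0.576) did not pass edgeR's limit. The sources used here do not state the hour at which the hearts were taken, so day and hour cannot be told apart. Clock genes cycle over the day in heart, and a difference in hour was not tested.

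**Figure D4:**
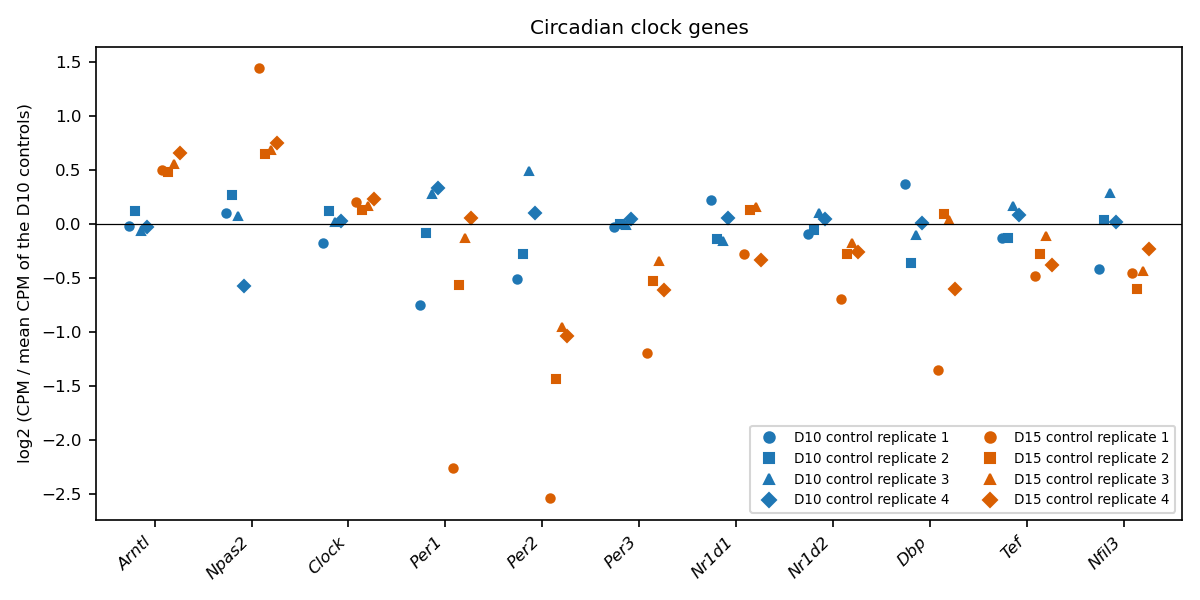
Log2 ratio of each heart's CPM to the mean CPM of the D10 controls for clock genes, D10 controls in blue and D15 controls in orange. Arntl lies higher in all 4 D15 hearts (33.5 to 37.9 CPM) than in all 4 D10 hearts (22.9 to 26.1 CPM), and D15 control replicate 1 is the lowest heart in Per1, Per2, Per3 and Dbp.

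The start region of Arntl is shown for the element through which ROR and REV-ERB receptors are known to act on this gene. It lies at chr7:113207261-113207560 (+) on GRCm38.p6, from RefSeq, and is one of 2 annotated start windows. Capitals mark TAGGTNA, searched on both strands. The form of the element was taken from this promoter, so its presence here is no finding.
Arntl: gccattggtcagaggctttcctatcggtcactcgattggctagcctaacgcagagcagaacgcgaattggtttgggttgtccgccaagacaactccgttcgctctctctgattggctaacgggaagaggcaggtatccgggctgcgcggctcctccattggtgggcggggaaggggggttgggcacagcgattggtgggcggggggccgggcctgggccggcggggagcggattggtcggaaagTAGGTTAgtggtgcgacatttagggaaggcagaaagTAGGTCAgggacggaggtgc

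The Arntl window held TAGGTNA 2 times. Over the clock list, 3 of 31 windows held it, from 2 of 22 genes, beside 8.29% of all windows and 5.91% of the windows of genes tested.

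Among the genes that rose, the largest differences were in atrial and mesothelial genes and came from 3 hearts. Bmp10, a growth factor that in the adult heart is made in the right atrium and that was singled out from its values, lay at 1.09, 0.147, 0 and 0.761 CPM at D10 and at 119, 153, 165 and 0.341 CPM at D15 (log2 fold change 7.81, standard error 1.39, adjusted p = 0.0440, edgeR). D15 control replicate 4 was at the D10 level, and the days overlapped. Nppa, atrial natriuretic peptide, lay at 131, 83.3, 54.2 and 73.3 CPM at D10 and at 550, 768, 676 and 58.3 CPM at D15 (adjusted p = 0.0730, edgeR). Myl7, the atrial myosin light chain, lay at 119, 67.9, 43.9 and 70.8 CPM and at 383, 500, 440 and 61.7 CPM. Both had the same split, 3 D15 hearts high and D15 control replicate 4 within the D10 range. Nppb, the natriuretic peptide that ventricle also makes, had a log2 fold change of 0.09 (adjusted p = 0.645, edgeR).

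Of 15 atrial genes and natriuretic peptides, 1 rose, and 9 were higher and 1 lower at an unadjusted p under 0.05, with a median log2 fold change of 0.806. Without D15 control replicate 4, 9 of the 15 passed FDR 0.05 and the median was 0.996, while without each of the other hearts 0 or 1 passed. Upk3b, a mesothelial surface protein of the epicardium, lay at 0.327, 1.37, 0.428 and 1.58 CPM at D10 and at 19.4, 13.2, 25.7 and 1.93 CPM at D15 (log2 fold change 4.03, standard error 0.73, adjusted p = 0.0440, edgeR). Msln, mesothelin, lay at 0.164, 0.441, 0.0535 and 0.380 CPM and at 4.77, 3.90, 7.97 and 0.625 CPM. The days did not overlap in either, but D15 control replicate 4 was near the D10 hearts. Of 6 mesothelial genes tested out of 10 in the list, 2 rose and all 6 were higher at an unadjusted p under 0.05, with a median of 1.478. The D15 hearts alone could satisfy the filter on low counts, as for Msln, so this direction is partly fixed by it. Without D15 control replicate 4, 5 passed FDR 0.05, without D10 control replicate 4, 2 passed, and without any of the other 6 hearts 0 passed, with 5 or 6 at an unadjusted p under 0.05.

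**Figure D5:**
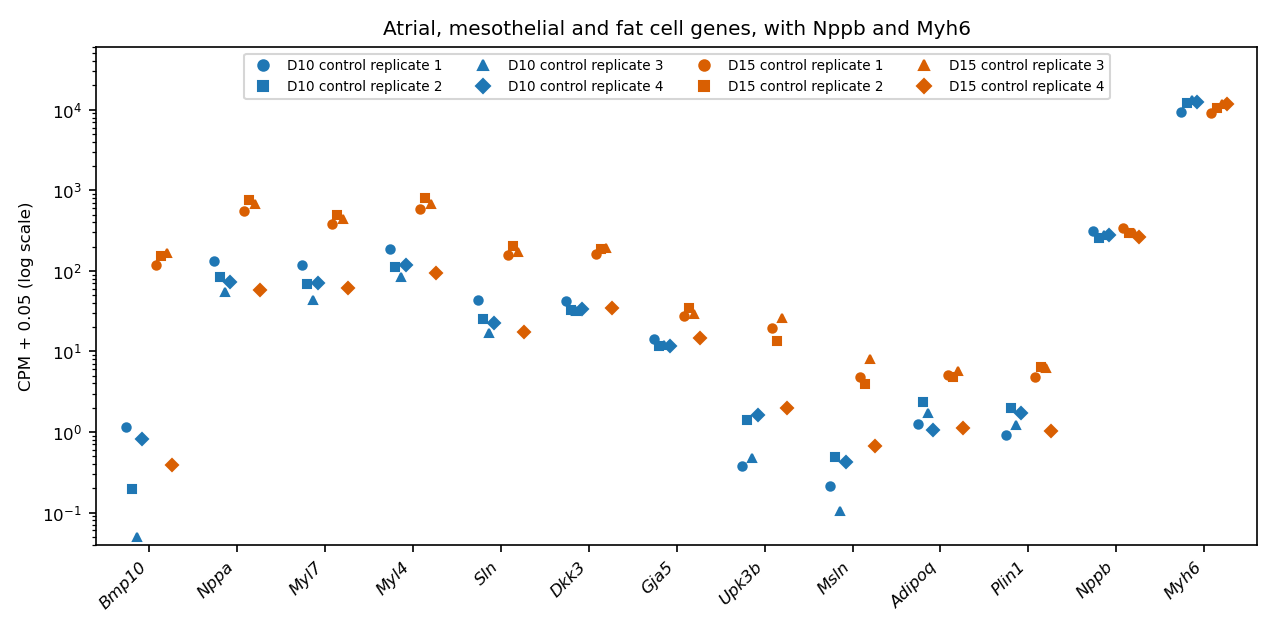
CPM plus 0.05 on a log axis for atrial, mesothelial and fat cell genes and, at the right, Nppb and Myh6, one point per heart, D10 controls in blue and D15 controls in orange. In Bmp10, Nppa and Myl7, D15 control replicates 1 to 3 lie above all D10 hearts and D15 control replicate 4 lies among them (58.3 CPM for Nppa against 54.2 to 131 CPM at D10).

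Fat cell genes were mixed. Of 21 white fat cell genes tested, 0 passed FDR 0.05 by edgeR, and 11 were higher and 3 lower at an unadjusted p under 0.05. The log2 fold change was above 0 in 13 and below 0 in 8, among them Dgat2 (-0.22), Lipe (-0.22) and Plin4 (-0.27), which heart muscle also expresses. Plin1, which coats the lipid droplet of fat cells, lay at 0.872, 1.91, 1.18 and 1.65 CPM at D10 and at 4.77, 6.36, 6.11 and 0.966 CPM at D15. Adipoq, adiponectin, lay at 1.20, 2.30, 1.66 and 1.01 CPM and at 5.02, 4.70, 5.61 and 1.08 CPM. In both genes D15 control replicate 4 was within the D10 range. Without D15 control replicate 4, 10 of the 21 passed FDR 0.05. Ucp1, the uncoupling protein of brown fat, which was under the filter, had 73 reads in D15 control replicate 2, 33 in D15 control replicate 3, 5 in D10 control replicate 4 and 0 in the other 5 hearts. In EAM hearts, which did not enter the fit, Bmp10 lay at 7.10 to 181 CPM at D10 and 50.3 to 159 CPM at D15. Upk3b lay there at 6.14 to 17.9 and 3.21 to 10.5 CPM, and Msln at 1.97 to 8.06 and 2.78 to 7.26 CPM. These EAM levels were not tested. How much atrial, epicardial or fat tissue each sample held was not measured. With 3 of 4 D15 hearts high in these genes, it cannot be told apart from the day in the control hearts compared.

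The mean log2(CPM + 1) of Nppa, Myl7, Myl4 and Sln, taken as an atrial score, was 6.754, 6.01, 5.461 and 5.951 in the D10 hearts and 8.553, 8.963, 8.75 and 5.659 in the D15 hearts. The 3 highest scores were all at D15, so score and day overlap. Among the 32 genes that rose, D15 control replicate 4 was the D15 heart nearest to D10 in 21.

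In some other genes that rose, replicate 4 was also the lowest D15 heart. Gja5, the gap junction protein connexin 40 of atria, Purkinje fibres and arteries, rose from 14.3, 11.7, 12.1 and 11.5 CPM to 27.5, 34.3, 29.1 and 14.7 CPM. Cacna2d2, a calcium channel subunit, rose from 7.96, 6.03, 4.87 and 6.66 CPM to 15.9, 15.6, 18.1 and 9.03 CPM. D15 control replicate 4 stayed above every D10 heart in both. Other risen genes did not follow that split. Tbxa2r, the thromboxane receptor, rose from 3.16, 2.01, 2.84 and 2.92 CPM to 6.58, 4.98, 5.26 and 4.94 CPM. Sypl2, mitsugumin 29 of the muscle triad, rose from 2.18, 1.76, 2.41 and 2.35 CPM to 3.77, 4.64, 3.96 and 3.86 CPM. In Tbxa2r and Sypl2 the 4 D15 hearts lay together above the D10 hearts, as they did in Pzp (log2 fold change 1.38), a protease-binding plasma protein, Enkur (1.34) and Gstm6 (0.78), a glutathione transferase. Grin2c (1.75), a subunit of the NMDA receptor, and Phkg1 (0.92), the catalytic subunit of phosphorylase kinase, rose with D15 control replicate 4 the lowest of the D15 hearts.

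Sarcomere and collagen genes had medians near 0. Of 20 sarcomere genes 0 passed FDR 0.05 by edgeR and 2 were lower at an unadjusted p under 0.05, with a median log2 fold change of -0.017. Of 22 collagen genes 0 passed, 2 were higher and 1 was lower, with a median of -0.02. Of 38 myofibroblast, crosslinking and matricellular genes 2 fell, and at an unadjusted p under 0.05 9 were lower and 4 higher, with a median of -0.063. The lowest of the 38 values, -2.316, was that of Mmp8, which the neutrophil list also counts. Of 20 genes of cardiomyocyte calcium handling and channels 1 rose, 4 were higher and 1 was lower, with a median of 0.016. Control hearts at D21, which did not enter the fit, had means nearer to D15 than to D10 in 66.1% of all genes tested, and in all but 3 of the 104 genes that fell and all but 1 of the 32 that rose. This nearness is a description, since both sets were chosen on the D15 and D10 hearts. For the share of all genes, nearness was the smaller difference between mean CPM values. For the called genes and the lists, it was the side of the geometric midpoint of the D10 and D15 means. The share and the counts are therefore not strictly like for like. By list, the D21 mean was nearer to D15 in 13 of 14 platelet, 18 of 21 neutrophil, 40 of 46 fatty acid, 29 of 32 chaperone, 21 of 27 clock, 47 of 54 cell cycle, 20 of 21 white fat cell, 14 of 15 atrial and 6 of 6 mesothelial genes. Atrial genes at D21 were at the level of D15 control replicates 1 to 3, with Bmp10 at 99.6 to 245 CPM and Nppa at 550 to 844 CPM.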

How the data were processed

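Libraries were made from heart RNA with a directional kit; the sources used here do not state whether counting used strand. Per the study's methods, the authors aligned reads to GRCm38 with HISAT2 (2.0.4 in the submitters' processing notes), removed duplicate reads with Picard, which can lower the counts of the most abundant genes, and assigned reads to Ensembl genes with featureCounts. The deposited values are raw counts per gene. From them, the 4 D10 and 4 D15 control libraries were taken; 92 spike-in features, all with 0 reads, were left out of tests. Counts were scaled by TMM and compared with edgeR 4.0.16 (R 4.3.3), glmQLFit and glmQLFTest, with Benjamini-Hochberg adjustment over 14926 genes. Alternatives used DESeq2 1.42.0, limma 3.58.1 and other edgeR tests. The script was tested on simulated data. Shares were compared by an exact permutation test with scipy 1.17.1. Levels in EAM and D21 hearts were scaled over all 24 libraries and are for reading side by side only. The members and gene lists were chosen with earlier results of these data known. Genes named by rule were those with FDR under 0.05 that averaged 1 CPM or more and did not overlap between the days, up to 12 in each direction by size, the 4 with the smallest p from each list with at least 3 members past FDR 0.05, the defining markers of cell types, and Ptprc. Every other gene named, such as Arntl, Bmp10, Nppa, Stat3, Hspa5 or Per2, was chosen after its values were seen. Some genes counted in the lists are not reported here by name. The labels give separate hearts but not what the replicate numbers mark, and the deviations of same-numbered D10 and D15 hearts had correlations of 0.19, 0.0157, 0.0871 and 0.0818, so they were not treated as pairs. P-values judge the difference between the days against the spread between hearts of the same day. No libraries agreed within sampling noise.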

Additional observations from a re-analysis of the deposited data

Results flagged for a closer look

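For each named gene and for 3 shares of reads, on each day, a heart was singled out where its gap to the nearest other heart, divided by the range of the 4 hearts, passed Dixon's 95% critical value for 4 values. This gave 14 values in 150 groups of 4 hearts, and chance gives about 1 in 20 groups. In 8 of the 14 the heart was D10 control replicate 3, far above the other D10 hearts in platelet genes and genes that moved with them: Ppbp at 46.26 CPM, Itga2b at 35.23 CPM, F5 at 11.51 CPM, Gp9 at 10.5 CPM, Clec1b at 9.906 CPM, Gp1bb at 8.3 CPM, Treml1 at 7.604 CPM and Cd226 at 5.248 CPM. D15 control replicate 4 was low in Phkg1 at 11.76 CPM. D10 control replicate 4 was low in Cbr2 at 38.48 CPM, and D15 control replicate 1 was low in Socs3 at 8.338 CPM. In marker genes, D10 control replicate 1 was low in the endothelial gene Pecam1 at 286.3 CPM and high in the fibroblast gene Tcf21 at 16.35 CPM, and D15 control replicate 1 was high in Tcf21 at 21.45 CPM.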

How the results depend on the processing

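Counts are given as higher and lower genes. At FDR 0.05 (32 and 104) they were 275 and 395 by the edgeR likelihood ratio test, 268 and 386 by the exact test, 259 and 416 by DESeq2, 1 and 2 by limma-voom, 10 and 31 with scaling to total counts, 178 and 279 with no filter on low counts, 117 and 173 in a fit of all 12 control hearts, 6 and 24 in a fit of all 24 hearts, 0 and 0 when testing against a fold threshold (136 genes at an unadjusted p under 0.05), and 0 and 0 with the atrial score as covariate (1141 genes at an unadjusted p under 0.05), an alternative chosen after seeing the data. At the limits of the study (0 and 0) they were 57 and 112, 55 and 109, and 32 and 92 by the first 3 tests, 10 and 50 with no filter, 0 and 11 with 12 hearts and 1 and 14 with 24 hearts. With the replicate number as a replicate block they were 90 and 172 at FDR 0.05, of which 118 were shared with the 136, and 1 and 20 at the limits of the study; the labels give the numbers no meaning, so this pairing is not used. With each heart left out the counts ranged from 0 to 193 and 0 to 354 at FDR 0.05 and from 0 to 58 and 0 to 54 at the limits of the study, and the difference in mitochondrial share from -0.0674 to 0.483 percentage points. The cause of these shifts was not tested. Median-ratio and upper-quartile scaling, a robust fit, a minimum of 1 CPM, the newer quasi-likelihood form (added after seeing the data) and leaving out mitochondrial genes stayed within 1.5 times. All 136 calls kept their sign in each setting in which they were tested, which for left-out hearts follows from the lack of overlap in 133 of them and is no sign of stability. Only marker genes with log2 fold changes near 0 turned sign. These were Myh6 (0.039) and Tcf21 (-0.012) with the covariate, Tnnt2 (-0.07 to 0.006 with each heart left out), Ryr2 (-0.221 to 0.015 with each heart left out, 0.203 with the covariate), Pecam1 (-0.002 with 24 hearts, -0.020 to 0.056 with each heart left out), Dpt (0.002 by voom, 0.006 with upper-quartile scaling, 0.011 with total counts, 0.001 with the block, -0.063 to 0.058 with each heart left out), Cd79a (-0.317 to 0.139), Hba-a1 (-0.433 to 0.118) and Mylpf (0.017 by voom, 0.010 with upper-quartile scaling, 0.019 with total counts, 0.009 with the block, 0.001 with the newer form, 0.142 with the covariate, -0.177 to 0.296 with each heart left out). With the atrial score as covariate, with which the day overlaps in these hearts, median log2 fold changes were -2.07 for platelet (12 of 14 lower at an unadjusted p under 0.05), -1.761 for neutrophil, -1.14 for acute phase, -0.927 for chemokine, -0.535 for macrophage, -0.432 for monocyte, -0.425 for complement, -0.289 for immediate early, -0.161 for chaperone, -0.13 for fatty acid, -0.063 for glucocorticoid-responsive, -0.005 for atrial, 0.03 for white fat cell, 0.122 for cell cycle and 0.572 for mesothelial genes. The 4 genes of the score are members of the atrial list, so a median near 0 for that list was partly built in. Near 3 reads per library, as for Gp9 and Gp5 at D15, depth limits the size of a fold.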

Other observations

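Genes of proliferation and of cholesterol synthesis leaned upward at D15 without a call. Of 54 cell cycle genes 0 passed FDR 0.05 by edgeR, 10 were higher at an unadjusted p under 0.05 and 0 lower, 46 had a log2 fold change above 0, and the median was 0.166. With each heart left out, 3 to 17 were higher, and the median ranged from 0.088 without D10 control replicate 3 to 0.357 without D10 control replicate 1. Mki67, a marker of dividing cells, had a log2 fold change of 0.34 (adjusted p = 0.545, edgeR). Of 22 cholesterol synthesis genes 0 passed, 4 were higher and 1 lower at an unadjusted p under 0.05, and 21 were above 0, with a median of 0.16. Of 73 ribosomal protein genes 0 passed, with 10 lower and 1 higher at an unadjusted p under 0.05. Below 0 were 63 of them, with a median of -0.056, and 2 to 12 were lower at that p with each heart left out.

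Erythroid genes were lower by a smaller amount than platelet genes. Of 11 tested, 1 fell and 5 were lower at an unadjusted p under 0.05, with a median log2 fold change of -0.241, ranging from -0.435 without D15 control replicate 3 to -0.131 without D10 control replicate 2. Slc4a1, the anion exchanger of red cells, lay at 1.47, 1.96, 1.39 and 1.39 CPM at D10 and at 0.452, 0.745, 0.802 and 0.682 CPM at D15. The share of reads from globin genes was 0.0235% at D10 and 0.0191% at D15 (exact two-sided permutation test, p = 0.286, adjusted over 3 shares 0.857). Of 28 genes that respond to glucocorticoids, 1 fell, 11 were lower at an unadjusted p under 0.05, and the median was -0.25, ranging from -0.452 without D15 control replicate 4 to -0.127 without D15 control replicate 1. Of 12 tested genes of endothelial adhesion and activation, 2 fell, Selp and Sele, the latter being E-selectin, from 6.76, 8.08, 5.997 and 3.93 CPM to 3.37, 2.81, 2.26 and 2.39 CPM.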
